A study of Arabidopsis thaliana with 115 samples.

Results

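VRN1 (VERNALIZATION1, AT3G18990) is a plant-specific transcription factor (TF) of the B3-REM family, and the data described here are the 3 RNA-seq libraries of root cells that received VRN1, set against the 3 libraries of root cells of the same batch that received the empty vector (EV). The series holds 112 libraries besides the 3 of VRN1, and the 6 libraries were chosen by their labels alone. The assay was TARGET, in which a plasmid that expresses a TF fused to the glucocorticoid receptor (GR) is put into root protoplasts, dexamethasone (DEX) moves the fusion into the nucleus, and cycloheximide (CHX) blocks the synthesis of further proteins. The EV expressed GR without a TF. Both groups came from roots of 10-day-old wild-type Col-0 seedlings and received the same 60 mM of total nitrogen (N; 20 mM KNO3 and 20 mM NH4NO3), 35 µM CHX and 10 µM DEX, and by their labels VRN1 and EV cells differed in the plasmid. The cells were protoplasts sorted by the fluorescent protein of the plasmid, and cells that held a TF with a red marker were pooled with cells that held a TF with a green one before sorting. The 3 libraries of a group were wells of 1 assay, and their spread does not include the spread between independent assays.

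VRN1 binds DNA through B3 domains, and binding in vitro was found to depend little on sequence. In intact plants it is known for keeping the floral repressor FLC silent after a long cold period, together with the Polycomb protein VRN2 and with VIN3, a PHD-finger protein that cold induces. A role in roots supplied with N is not part of that textbook picture. Batch 6 also held the TFs DIV1, ERF5, LBD37, RAV1 and WRKY54, with 3 libraries each, and RAV1 is the other one of these with a B3 domain.

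The total counts were 2089480 to 5864493 in the VRN1 libraries and 4080050 to 5058964 in the EV libraries, and the smallest was VRN1 replicate 3. Pearson's correlation between replicates was 0.982 to 0.987. The 10 most abundant genes took 18.3% to 18.9% of the counts in VRN1 and 20.7% to 26.0% in EV. The largest of them, the non-coding RNA AT3G06365, took 10.0% to 10.3% in VRN1 and 11.7% to 15.3% in EV, so the groups did not overlap in this share. Root identity was checked with marker lists. Stele markers summed to 96.2 to 137 CPM (counts scaled to the library's size) in VRN1 and 93.9 to 115.1 CPM in EV, and cortex and endodermis markers to 45.2 to 55.7 and 66.2 to 83.5 CPM. Epidermis and hair markers were close to absent, at 1.35 to 3.28 CPM in VRN1 and 1.3 to 3.41 CPM in EV, with COBL9 (listed as SHV2) at 0 in all 6 libraries. Green tissue markers summed to 0.601 to 2.12 and 1.52 to 1.86 CPM. VRN1 replicate 1 stood apart in heat shock genes, at 1990 CPM against 959 and 1177 CPM in the other VRN1 libraries and 654 to 1268 CPM in EV, and in cap and stem cell niche markers, at 23.7 CPM against 9.84 and 9.85 CPM. The part of these differences in the results was not tested. In such bulk samples, fewer cells of a type and less RNA per cell cannot be told apart.

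The VRN1 gene itself (chromosome 3, 6548127 to 6552055, minus strand, TAIR10) was at 3977, 4860 and 4887 CPM in the VRN1 libraries and at 17.3, 12.3 and 18.0 CPM in EV. The groups were far apart, and the labels fit the values. The log2 fold change was 8.18 ± 0.25 (SE, n = 3 in each group, adjusted p = 3.87e-43, edgeR's quasi-likelihood test with Benjamini-Hochberg adjustment, as for all adjusted p-values below). Over the 112 other libraries it was highest in the 3 of LBD37, at 158, 53.3 and 80.0 CPM, and at most 29.98 CPM elsewhere. LBD37 is 1 of the 5 TFs that VRN1 is compared with below. Counts from the plasmid and from the chromosomal gene cannot be told apart, and the gene is left out of everything that follows.

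How many genes responded to VRN1, and in which direction, was asked first. Genes on the study's list of CHX-responsive genes were left out, here and in the counts of tested genes of each gene list below. Of 21484 tested genes outside that list, 496 passed the threshold of an adjusted p of 0.05. Of these targets, 326 were higher in VRN1 than in EV (induced, 1.52% of the genes tested) and 170 were lower (repressed, 0.791%), so that 65.7% were induced. The median log2 fold change was 0.75 for induced targets and -0.53 for repressed ones. At least 2-fold changes were found for 92 of the 326 induced and 23 of the 170 repressed targets. At least 4-fold changes were found for 16 and 8. Repressed targets were better counted, with a median of 77.8 CPM in EV against 29.8 CPM for induced ones. The part of this in their smaller median was not tested. The 3 VRN1 values lay wholly above the 3 EV values for 321 induced targets, and wholly below for 164 repressed ones. Over all genes tested, 8.73% lay wholly above and 9.8% wholly below. The counts depended on the fit and on single libraries. A replicate block gave 751 targets and a fit of the VRN1 and EV libraries only gave 1322. Without VRN1 replicate 2 the induced and repressed targets numbered 191 and 71, without EV replicate 2 195 and 86, and without EV replicate 3 198 and 89. Without VRN1 replicate 1 there were 216 induced targets, and without VRN1 replicate 3 100 repressed ones.

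**Figure D1:**
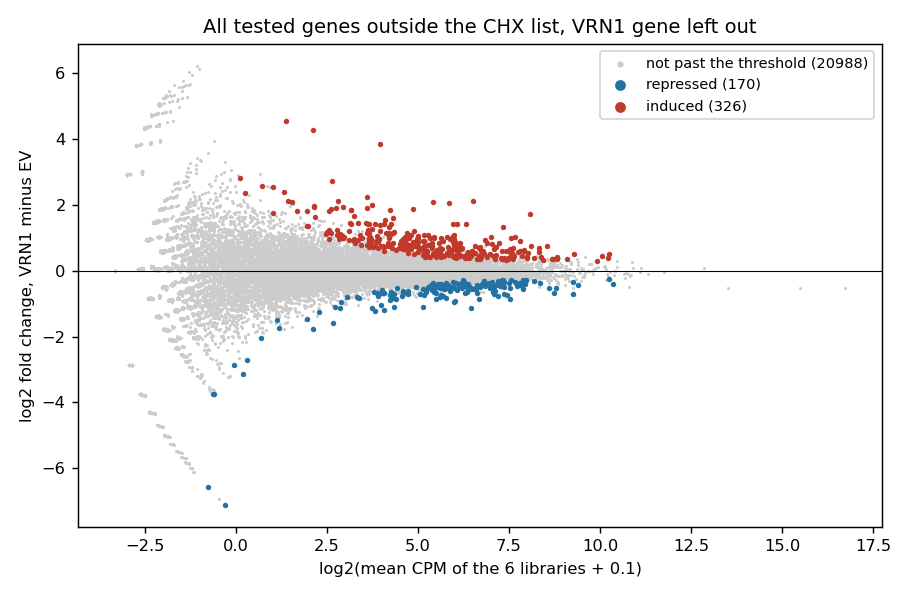
Log2 fold change of VRN1 against EV on the vertical axis, over the log2 of the mean CPM of the 6 libraries plus 0.1, with 1 point a gene. The 326 induced targets (red) reached higher above 0 than most of the 170 repressed ones (blue) fell below it, and the widest scatter was at low CPM, where few genes passed the threshold.

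The induced targets named first were the 20 with the largest fold changes among targets with at least 5 CPM in 1 group and no overlap between the groups. They ranged from 4.27 for RHS17 to 1.8 for TGA7 on the log2 scale. All 20 were also higher in VRN1 than in the mean of the 5 other TFs of the batch, and 19 were higher than in RAV1. The exception was the histone gene AT1G13370, whose call against EV (adjusted p = 0.049) held in 7 of 13 alternatives. That of AT4G01575 (adjusted p = 0.0209) held in 7 of 12. The comparisons with other TFs use the VRN1 libraries by which the 20 were chosen, so they are not independent of that choice. Over all genes, 6.8% were higher in VRN1 than in the 5 other TFs and 10.7% higher than in RAV1.

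RHS17, which the annotation names root hair specific 17, was at 7.06, 7.15 and 10.2 CPM in VRN1 and at 0, 0.745 and 0.379 CPM in EV. ATL5, which encodes a RING-type protein of the ATL family of ubiquitin ligases, was at 28.1, 32.8 and 25.4 CPM in VRN1 and at 2.27, 1.86 and 1.90 CPM in EV. RHS17 was close to the limit of detection in EV, and ATL5 was low there but counted in every library. Both were clearly counted in every VRN1 library. The log2 fold change of RHS17 was 4.27 ± 0.58 (adjusted p = 3.64e-08) and that of ATL5 was 3.84 ± 0.52 (adjusted p = 2.98e-08). RHS17 was the 1 called of 7 tested genes with an RHS symbol, most of which were too low in both groups for a call. ATL5 (AT3G62690) was the 1 called of 10 tested genes with an ATL symbol, 1 of which, AT3G25520, encodes ribosomal protein L5 and shares the symbol only. Among the 27 TFs of the other batches, RHS17 was higher than EV for 0 and lower for 3. ATL5 was higher for 1 and lower for 0. Over all tested genes the median was 0 in both directions.

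NRAMP1, a transporter of manganese and iron, was at 81.3, 97.9 and 102 CPM in VRN1 and at 21.4, 21.4 and 24.6 CPM in EV, a log2 fold change of 2.05 ± 0.14 (adjusted p = 4.24e-23). KCO2, a potassium channel of the tandem-pore type, was at 9.77, 10.6 and 11.5 CPM in VRN1 and at 1.59, 1.49 and 1.71 CPM in EV, and the log2 fold change was 2.72 ± 0.53 (adjusted p = 2.16e-04). Within each group these values were tight, and the gap between the groups was several times the spread. Potassium transport was represented again by both genes with the symbol KT1. AT2G30070, a carrier, rose from 3.79 ± 1.16 to 14.0 ± 1.66 CPM (mean ± SD, n = 3). AT2G26650, the inward channel also called AKT1, rose from 51.5 ± 6.36 to 79.4 ± 10.4 CPM. The zinc transporter ZIP5 (log2 fold change 1.21), the polyamine transporter PUT4 (1.59) and AT4G21910, a MATE efflux protein (2.23), rose as well.

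A keyword group of transporters and channels, defined after the values were seen, held 676 tested genes, of which 19 were induced (2.81%, against 1.52% of all genes) and 7 repressed (1.04%, against 0.791%). LHT1 and AAP1, which import amino acids, were both induced, LHT1 at 1356, 1357 and 1284 CPM against 1112, 1036 and 941 CPM in EV. PHT1;4, a phosphate transporter, and PHF1, which helps phosphate transporters leave the endoplasmic reticulum, rose by 0.58 and 0.52 on the log2 scale. ABCG1, ABCB26 and the sulfate transporter gene SULTR3;1 were among the 7 that fell.

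CML42, a calmodulin-like calcium sensor, was at 69.9, 72.8 and 65.2 CPM in VRN1 and at 20.7, 16.0 and 12.7 CPM in EV, a log2 fold change of 2.08 ± 0.22 (adjusted p = 8.56e-13). LOG3, which activates cytokinins, was at 39.2, 55.2 and 41.0 CPM against 11.6, 15.1 and 10.4 CPM in EV, a log2 fold change of 1.87 ± 0.31 (adjusted p = 8.10e-06). Neither gene overlapped between the groups. Of 8 tested type-A response regulators, which cytokinins induce, ARR4 was the 1 that passed the test (0.90 ± 0.24), and the median of the 8 was 0.38. Of 12 tested genes of the abscisic acid response, ABI1 and HAB1 rose (16.7%, against 1.52% of all genes) and 0 fell. Both encode phosphatases that restrain the response. ABI1 was at 419, 302 and 302 CPM in VRN1 and at 223, 196 and 196 CPM in EV, so that VRN1 replicate 1 was the highest but the other replicates were also above EV. ABI2, a close homologue of ABI1, was at means of 45.6 CPM in VRN1 and 41.8 CPM in EV and did not pass (adjusted p = 0.866).

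Metabolic enzymes were represented by CYP71B5, a cytochrome P450 at 137, 157 and 148 CPM in VRN1 and at 37.1, 33.2 and 31.9 CPM in EV (log2 fold change 2.12 ± 0.18, adjusted p = 8.73e-17), and by CYP83B1, which acts in the synthesis of indole glucosinolates, at 111, 116 and 122 against 49.3, 38.8 and 43.0 CPM (1.41 ± 0.17, adjusted p = 1.63e-09). PAD3, the last enzyme of camalexin synthesis, rose from 94.9 ± 14.1 to 166 ± 6.83 CPM. As a family the cytochrome P450 genes moved in both directions, with 3 induced and 3 repressed of 160 tested (1.9% each). Over all genes 1.52% were induced and 0.791% repressed. CYP94B1, which oxidizes the active jasmonate conjugate, was one of those that fell, from 185 ± 11.9 to 109 ± 2.96 CPM.

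**Figure D2:**
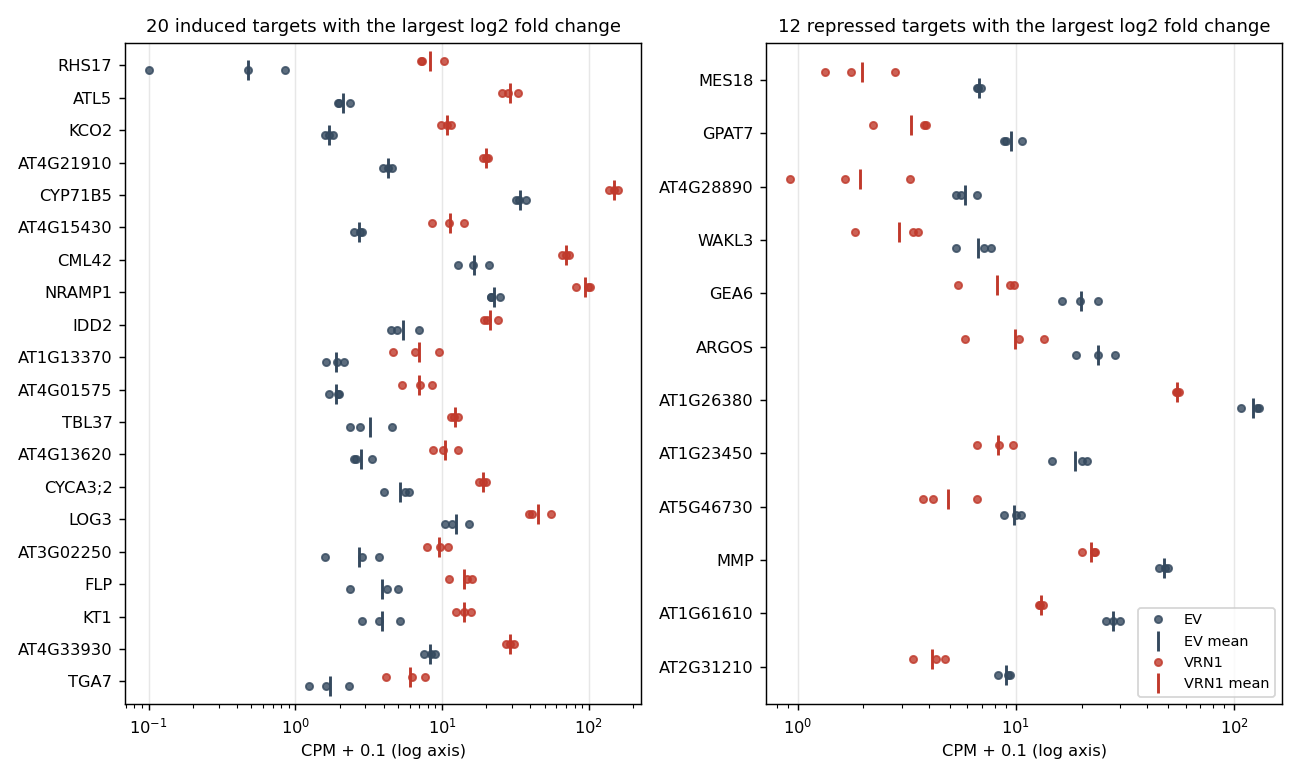
CPM plus 0.1 (log axis) of the 20 induced targets (left) and the 12 repressed targets (right) with the largest log2 fold changes, with a point for each of the 3 VRN1 (red) and 3 EV (dark) libraries and a bar at each mean. The groups do not overlap for any gene shown, as the rule of choice requires, and the gap was widest for RHS17 and ATL5 on the left and for MES18 and GPAT7 on the right.

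Genes of other DNA-binding proteins rose more often than they fell. Of 1074 tested genes in a keyword group of DNA-binding proteins, defined after the values were seen, 39 were induced (3.63%) and 12 repressed (1.12%), against 1.52% and 0.791% of all genes. IDD2, a zinc finger factor of the INDETERMINATE DOMAIN family, was at 23.9, 19.3 and 20.1 CPM in VRN1 and at 6.82, 4.84 and 4.36 CPM in EV (log2 fold change 2.0 ± 0.34, adjusted p = 1.80e-05). FLP, a MYB factor that limits divisions in the stomatal lineage, was at 11.1, 14.7 and 16.0 CPM against 2.27, 4.10 and 4.93 CPM in EV (1.85 ± 0.44, adjusted p = 0.00412; 0.0613 without EV replicate 1). The developmental regulators AP2, PHB and KNAT3, the clock-related factor RVE2, the zinc deficiency factor bZIP19, and the TGA factors TGA7 and TGA3 were higher too, by 0.43 to 1.8 on the log2 scale. None of the 27 tested TF genes of the other assays was a target. WRKY18 passed the threshold but is on the list of CHX-responsive genes.

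Within TF families the changes were few and mixed. Of 75 tested MYB genes, MYB14, MYB84, MYB102 and MYB68 rose (5.33%, against 1.52% of all genes), and MYB78 and MYB36 fell (2.67%, against 0.791%). MYB78 was at 130, 133 and 130 CPM in VRN1 and at 241, 206 and 212 CPM in EV (log2 fold change -0.75 ± 0.10, adjusted p = 1.36e-08), and it was also lower in VRN1 than in the 5 other TFs and in RAV1. Of 66 NAC genes, NAC046, NTM1 and NAC069 rose (4.55%) and 0 fell. WRKY23 rose and WRKY45 fell among 50 WRKY genes (2.0% each), and ERF7 rose among 13 ethylene response factors (7.69%). The Dof genes, a family of zinc finger factors, were picked here after their values were seen. Of 22 tested, AT1G69570, AT2G34140 and DAG1 fell (13.6%), by 0.62 to 0.78 on the log2 scale, and AT1G64620 rose (4.55%). Against the 5 other TFs, AT1G69570 and DAG1 were also lower and AT1G64620 higher. AT2G34140 did not differ from them beyond the threshold (adjusted p = 0.395). Against RAV1, however, AT1G69570 and DAG1 were higher, by 0.66 and 0.46 (adjusted p = 0.00103 and 0.0019). In the other batches, DAG1 was lower than EV for 18 of 27 TFs. In the B3-REM family itself 0 of 37 tested genes passed the threshold. RTV1, a B3 gene named for its relation to VRN1, was at 13.7, 15.6 and 11.5 CPM against 8.41, 9.13 and 9.67 CPM in EV, and its log2 fold change of 0.61 ± 0.23 missed the threshold (adjusted p = 0.161; 0.0475 when only the VRN1 and EV libraries were fitted).

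The question of whether VRN1 moved the genes it is known for in intact plants has a limit in these cells, which hardly express FLC. FLC had 3, 0 and 2 reads in the VRN1 libraries and 0, 1 and 2 reads in EV, and a difference was not detectable at this depth (adjusted p = 0.891). VIN3 was similarly low, at 0.451, 1.16 and 0.410 CPM against 0.682, 0.186 and 0.569 CPM in EV (adjusted p = 0.881). VRN2 was well counted, at 19.2 ± 4.59 CPM against 21.0 ± 2.09 CPM in EV (mean ± SD, n = 3), with overlapping groups (log2 fold change -0.10 ± 0.19, adjusted p = 0.927). Of 20 tested genes of vernalization and flowering time, 0 rose and 1 fell (5.0%, against 0.791% of all genes). That gene was FCA, an RNA-binding protein of the autonomous flowering pathway, at 37.6, 41.0 and 36.5 CPM in VRN1 and at 47.1, 54.4 and 54.8 CPM in EV (-0.44 ± 0.13, adjusted p = 0.0355). It did not differ from the mean of the 5 other TFs beyond the threshold (adjusted p = 0.302). Polycomb and histone H1 genes gave 0 calls among 13 tested, with log2 fold changes of -0.58 to 0.16. Over all genes 1.52% were induced and 0.791% repressed, so few calls would be found in lists this small.

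Genes of N use were next, since the series asks about N signalling. Of 12 tested genes of nitrate and ammonium transport, 0 passed the threshold, with a median log2 fold change of 0.13. Over all genes 1.52% were induced and 0.791% repressed, so 0 calls among so few genes says little. Of 16 genes of nitrate reduction and N assimilation, 1 rose (6.25%, against 1.52% of all genes). It was GSR 1 (AT5G37600), a cytosolic glutamine synthetase, at 158, 148 and 164 CPM in VRN1 and at 134, 111 and 121 CPM in EV (0.36 ± 0.10, adjusted p = 0.0247). The nitrate reductase genes NIA1 and NIA2 and the nitrite reductase gene NIR1 did not pass against EV. NIA2 was at 282, 254 and 225 CPM against 233, 200 and 208 CPM (0.25 ± 0.12, adjusted p = 0.346). NIA1 was at 8.26, 6.57 and 6.97 CPM against 8.19, 12.5 and 11 CPM (-0.53 ± 0.24, adjusted p = 0.319). NIR1 differed from EV by 0.10 (adjusted p = 0.878). Against RAV1, NIA2 was higher by 1.18 (adjusted p = 3.03e-14), NIR1 higher by 0.85 (adjusted p = 9.94e-07) and NIA1 lower, with a log2 difference of -1.2 (adjusted p = 5.57e-06). RAV1 had 5158 targets of its own against EV, so a difference from RAV1 is not by itself a change under VRN1. Over all genes, 10.7% were higher in VRN1 than in RAV1 and 10.5% lower. Against EV, NIA2 passed in 1 of the alternatives, the fit of the VRN1 and EV libraries only (0.27, adjusted p = 0.0142).

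Sulfur assimilation genes held calls in both directions. The group was defined after its values were seen. SERAT2;2, a serine acetyltransferase of mitochondria that makes the carbon backbone for cysteine, was at 369, 438 and 425 CPM in VRN1 and at 114, 130 and 133 CPM in EV, a log2 fold change of 1.71 ± 0.10 (adjusted p = 9.72e-29). The 26 tested genes of sulfate uptake and assimilation had a median log2 fold change of -0.23, and 7 were above 0. SERAT2;2 was the only one induced (3.85%, against 1.52% of all genes). Another 5 were repressed (19.2%, against 0.791% of all genes). These were the ATP sulfurylases APS1 and APS4, the sulfite reductase SIR, the O-acetylserine (thiol) lyase gene OASA2 and the transporter SULTR3;1. APS1 was at 152, 130 and 130 CPM in VRN1 and at 180, 196 and 201 CPM in EV (-0.49 ± 0.10, adjusted p = 3.11e-04), and the others fell by 0.37 to 0.70. SIR was the weakest of the 5 (adjusted p = 0.0495), and its groups overlapped, at 73.3, 56.2 and 63.1 CPM against 71.4, 86.5 and 91.0 CPM.

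Core histone genes were grouped after their values were seen. Of 42 tested genes for the histones H2A, H2B, H3 and H4, 13 were induced (31.0%, against 1.52% of all genes) and 0 repressed, and 37 had a log2 fold change above 0, with a median of 0.32. HTA6, an H2A gene, was at 59.0, 60.1 and 52.9 CPM in VRN1 and at 31.1, 24.6 and 31.7 CPM in EV (0.99 ± 0.18, adjusted p = 4.79e-05). AT5G65360, which the annotation gives as a histone superfamily gene, was at 55.7, 57.0 and 45.9 CPM against 28.4, 24.0 and 29.2 CPM (0.98 ± 0.20, adjusted p = 9.52e-04). AT1G75600, of the same superfamily, rose from 7.80 ± 0.367 to 18.5 ± 2.28 CPM. In 12 of the 13, the VRN1 and EV values did not overlap, where 8.73% of all genes lay wholly above EV. The comparator mattered here too: 7 of the 13 were higher than in the mean of the 5 other TFs, but 1 of the 13, HTB2, was higher than in RAV1. Over all genes these shares were 6.8% and 10.7%. Both comparisons share the VRN1 libraries with the call against EV. Among the 35 histone genes with at least 5 CPM, 34 were above 0 against EV (median 0.34) and 11 against RAV1 (median -0.23). In the other batches, the 13 were called higher than EV for 0 to 17 of 27 TFs, with a median of 13. Leaving out 1 library moved the count of induced histone genes from 13 to 5 without VRN1 replicate 1, to 7 without VRN1 replicate 2, to 6 without EV replicate 2 and to 8 without EV replicate 3. Histone genes are close copies of each other, and how reads that fit several of them were counted is not given in the sources used here.

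**Figure D3:**
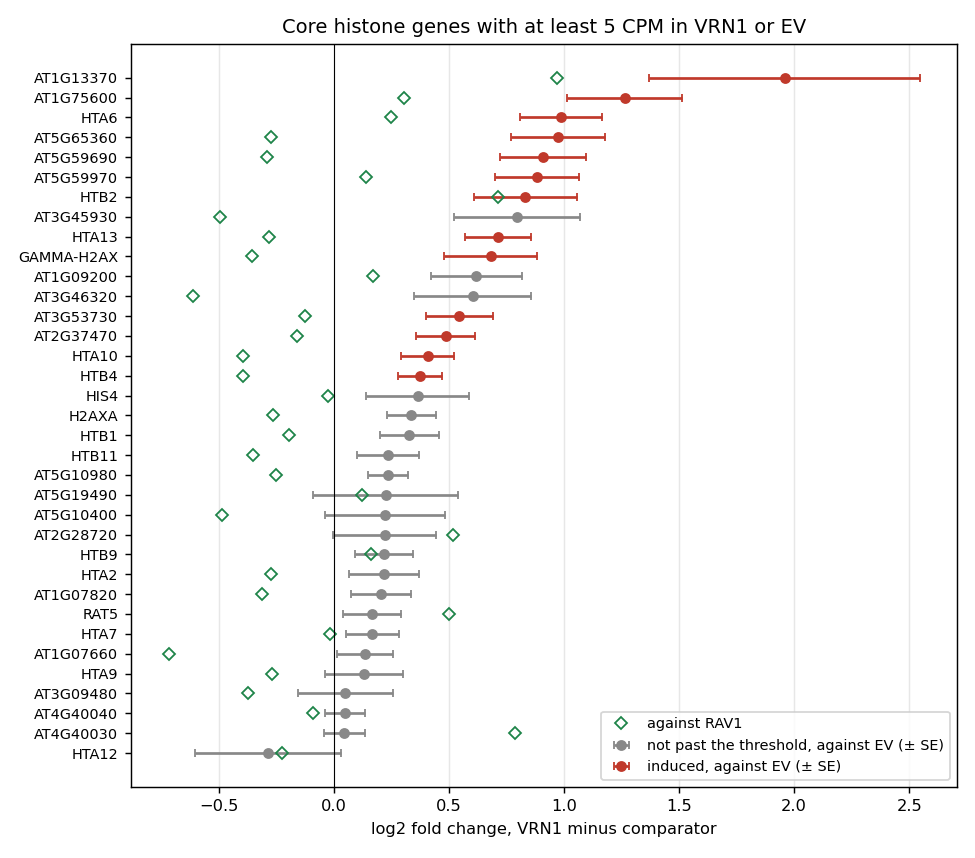
Log2 fold change of VRN1 against EV (filled points, with SE bars; red where induced, grey where not past the threshold) and against RAV1 (open diamonds) for the 35 core histone genes with at least 5 CPM in VRN1 or EV. Against EV 34 of the 35 points lie above 0, against RAV1 11 do.

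Cell cycle genes beyond the histones moved in fewer cases. CYCA3;2, an A-type cyclin, was at 19.8, 17.8 and 18.9 CPM in VRN1 and at 5.46, 3.91 and 5.88 CPM in EV (1.89 ± 0.31, adjusted p = 5.06e-06), and it was higher than in RAV1 by 2.62. It was the 1 induced gene of 26 tested cyclins (3.85%, against 1.52% of all genes). Of 40 tested DNA replication genes, RNR1 and TSO2 rose (5.0%), by 0.59 and 0.57. Both encode subunits of ribonucleotide reductase. TSO2 was lower in VRN1 than in RAV1, with a log2 difference of -0.62. Cyclins and replication genes were grouped after the values were seen.

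The 12 repressed targets with the largest decreases, chosen by the same rule, ranged from -1.76 for MES18 to -1.09 for AT2G31210 on the log2 scale. Of these, 3 were also lower than in the mean of the 5 other TFs and 5 lower than in RAV1, while 1, ARGOS, was higher than in the other TFs. Over all genes, 4.25% were lower in VRN1 than in the 5 other TFs and 10.5% lower than in RAV1. Here too the comparisons use the VRN1 libraries by which the genes were chosen. MES18, a methyl esterase, was at 1.65, 2.70 and 1.23 CPM in VRN1 and at 6.59, 6.52 and 6.83 CPM in EV (-1.76 ± 0.41, adjusted p = 0.00369). It lost the call without VRN1 replicate 1 (adjusted p = 0.0721) and with batch 6 libraries only (0.0825). GPAT7, an acyltransferase that acts in the formation of suberin, was at 3.76, 2.12 and 3.69 CPM against 8.87, 10.6 and 8.72 CPM (-1.58 ± 0.40, adjusted p = 0.0108). The call was lost without VRN1 replicate 2 (adjusted p = 0.138), without EV replicate 2 (0.0729) and with batch 6 libraries only (0.0868). It was 1 of 11 tested suberin genes and the only one called, and against the 5 other TFs its log2 difference was 0.31 (adjusted p = 0.728). ARGOS, an auxin-regulated gene that promotes organ growth, was at 13.4, 10.2 and 5.74 CPM in VRN1 and at 28.4, 23.7 and 18.8 CPM in EV, and it missed the threshold without VRN1 replicate 3 (adjusted p = 0.0618). Against the other TFs it was higher by 1.37 (adjusted p = 7.49e-06), so it lay between EV and the other TFs. AT1G26380, a berberine-bridge type oxidase, had the most even values, at 54.8, 56.0 and 54.1 CPM against 108, 128 and 130 CPM (-1.15 ± 0.26, adjusted p = 0.00373), and it was lower than in the 5 other TFs and in RAV1.

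Auxin and jasmonate genes were among the targets with smaller decreases. LBD16, a regulator of lateral root formation, and DFL1, a GH3 enzyme that conjugates auxin, fell by 0.55 and 0.75. They were 2 of 9 tested auxin response genes (22.2%, against 0.791% of all genes). GH3.3, which is on the list of CHX-responsive genes, fell further, by 1.36 (adjusted p = 2.27e-06). LBD16 was at 63.7, 74.2 and 62.3 CPM in VRN1 and at 94.6, 97.3 and 103 CPM in EV. LBD16 and DFL1 were also lower than in the 5 other TFs (adjusted p = 0.00266 and 6.24e-04). Neither differed from RAV1 beyond the threshold (adjusted p = 0.683 and 0.447). In the other batches, LBD16 was lower than EV for 18 of 27 TFs and DFL1 for 2. Of 6 tested JAZ genes, which encode repressors of the jasmonate response, JAZ1 fell by 0.26 (adjusted p = 0.0488). JAZ1 did not differ from the mean of the 5 other TFs beyond the threshold (adjusted p = 0.313). JAZ6, which is on the list of CHX-responsive genes, went the other way and rose by 0.59 (adjusted p = 3.57e-05). MYB36, which drives the Casparian strip programme of the endodermis, was at 34.5, 32.6 and 36.9 CPM against 54.6, 64.5 and 48.2 CPM (-0.69 ± 0.17, adjusted p = 0.00839). Its level did not differ from the 5 other TFs beyond the threshold (adjusted p = 0.933) and was higher than in RAV1 by 0.98 (adjusted p = 1.42e-05). It was the 1 cell type marker called. The summed level of its 3-gene marker list was 45.2 to 55.7 CPM in VRN1 and 66.2 to 83.5 CPM in EV, and the part of cell composition in the decrease was not tested.

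At the low end, 2 repressed targets had no read in any VRN1 library. CPI1, a cycloisomerase of sterol synthesis named here after its values were seen, had 3, 11 and 8 reads in EV and was at least 6.74-fold lower in VRN1, with a floor of 3 reads over the group. XTH6, a xyloglucan endotransglucosylase/hydrolase, had 2, 2 and 11 reads in EV, of which 1 library held most, and was at least 4.62-fold lower. XTH28 rose among the 18 tested genes of that family, and EXPA9 among 19 expansins, where VRN1 replicate 1 was at 66.0 CPM and the others at 30.5 and 32.4 CPM against 18.9 to 23.7 CPM in EV. AT-HSFA7B, a heat shock factor, also rested on VRN1 replicate 1, with 3.31 CPM against 0.966 and 0.820 CPM in the other VRN1 libraries. Heat shock genes gave 0 calls among 10. Of 9 housekeeping genes, ACT7 rose by 0.35.

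The remaining lists gave few calls. AT1G71695 rose (2.0%), and Prx37 and DOX1 fell (4.0%), among 50 genes that the annotation gives as peroxidase superfamily. DOX1 is an alpha-dioxygenase and not a class III peroxidase. GSTU12 and GSTU8 rose among 34 glutathione S-transferases (5.88%). Among 239 receptor-like kinases 7 rose (2.93%, against 1.52% of all genes), IOS1 and PERK1 among them, and 4 fell (1.67%, against 0.791%). Of 11 tested root hair genes 0 were called.

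To see which targets set VRN1 apart from other GR fusions handled in the same batch, the VRN1 libraries were compared with the 5 other TFs, a contrast that leaves the EV libraries out. Over all genes, 1460 were higher in VRN1 (6.8%) and 914 lower (4.25%). Of the 326 induced targets, 263 were also higher than in the 5 other TFs and 3 were lower. Of the 170 repressed targets, 69 were also lower and 14 were higher. Both comparisons use the same VRN1 libraries, so a gene that is high in these by chance is high in both. Against RAV1 alone, 2294 genes were higher in VRN1 (10.7%) and 2250 lower (10.5%). Of the induced targets 241 were higher than in RAV1, and of the repressed targets 40 were lower. In the other batches, which have their own EV libraries, 96 induced targets were higher for 0 of 27 TFs, and 36 repressed targets were lower for 0. NRAMP1, IDD2, LOG3, KCO2, FLP and CYCA3;2 were among these 96. A count of 0 does not set a target apart, since the median over all tested genes was 0 in both directions. The median was 2 TFs for induced targets and 3 for repressed ones. For 30 induced and 11 repressed targets there was no call in either direction for these 27 TFs. The share over all tested genes was not computed, so these counts do not set the targets apart.

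The median level in EV was 29.8 CPM for induced, 77.8 CPM for repressed and 6.72 CPM for all tested genes. On the chromosomes, 34 of the 326 induced targets (10.4%) had an induced target as the next tested gene on either side, and over all tested genes 2.83% had an induced neighbour. For repressed targets these shares were 6.47% and 1.49%. The 23 pairs included NTM1 with NAC069 on chromosome 4, CCR2 with NRAMP1 on chromosome 1, and MES18 with NET4A on chromosome 5. Reads that run from one gene into the next were not told apart from reads of the next gene.

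The motifs given for VRN1 in the study's set of binding motifs, which came from DNA affinity purification, belong to a cluster that VRN1 shares with Dof factors and whose conserved core is AAAAAG. This core was searched on both strands, so that its reverse complement CTTTTT counted as well, in the 250 bases before and 50 bases after each annotated gene start. The core was present at 76.1% of 326 induced targets, 57.1% of 170 repressed targets and 58.9% of all 21359 tested genes with such a window. At least 2 copies were found at 45.4%, 23.5% and 24.8%. The order of the letters made little difference, however. The same letters as GAAAAA were present at 74.8% of induced, 60.6% of repressed and 59.3% of all genes, and the median A and T content of the windows was 71.3%, 68.7% and 67.7%. The share with the core in induced targets was thus close to the share with the same letters in the other order. A match is a string of letters and does not show binding.

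To show how the core sits in such sequence, the 250 bases before the annotated gene start are given for 5 of the 20 induced targets named first, the 3 with the largest fold changes and the 2 with the most copies among these 20, in lower case, 5′ to 3′ on the strand of the gene, with the core or its reverse complement in capitals. Coordinates and sequence are those of the RefSeq copy of the genome (TAIR10.1, with the same chromosomes as TAIR10). RHS17 lies on the plus strand of chromosome 4 (window 17975526 to 17975775), ATL5 on the minus strand of chromosome 3 (23186721 to 23186970), KCO2 on the minus strand of chromosome 5 (18811871 to 18812120), CML42 on the minus strand of chromosome 4 (11134076 to 11134325) and AT4G01575, a protease inhibitor gene of the Kazal type, on the minus strand of chromosome 4 (682602 to 682851).
RHS17: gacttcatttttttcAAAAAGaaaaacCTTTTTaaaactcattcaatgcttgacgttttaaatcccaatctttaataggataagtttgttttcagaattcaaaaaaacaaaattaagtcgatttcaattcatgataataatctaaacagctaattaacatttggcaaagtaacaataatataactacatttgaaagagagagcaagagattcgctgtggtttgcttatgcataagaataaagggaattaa
ATL5: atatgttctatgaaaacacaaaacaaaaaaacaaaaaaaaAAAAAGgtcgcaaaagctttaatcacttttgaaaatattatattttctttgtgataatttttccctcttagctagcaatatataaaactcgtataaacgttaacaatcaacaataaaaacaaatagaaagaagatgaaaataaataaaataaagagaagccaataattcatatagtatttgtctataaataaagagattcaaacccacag
KCO2: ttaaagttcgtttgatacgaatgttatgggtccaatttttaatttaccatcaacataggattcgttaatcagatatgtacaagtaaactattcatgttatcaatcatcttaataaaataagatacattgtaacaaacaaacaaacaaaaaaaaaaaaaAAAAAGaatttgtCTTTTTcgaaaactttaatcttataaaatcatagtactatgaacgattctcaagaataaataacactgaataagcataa
CML42: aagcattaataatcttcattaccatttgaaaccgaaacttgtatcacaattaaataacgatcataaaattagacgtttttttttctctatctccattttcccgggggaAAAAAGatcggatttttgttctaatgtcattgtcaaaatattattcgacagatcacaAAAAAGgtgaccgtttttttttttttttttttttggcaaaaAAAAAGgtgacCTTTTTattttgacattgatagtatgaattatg
AT4G01575: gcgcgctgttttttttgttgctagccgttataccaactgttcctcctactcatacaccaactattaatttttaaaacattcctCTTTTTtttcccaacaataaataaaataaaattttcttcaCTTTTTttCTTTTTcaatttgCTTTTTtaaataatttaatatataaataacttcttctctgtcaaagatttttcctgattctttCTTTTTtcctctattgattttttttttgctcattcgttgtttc
RHS17 had 2 matches, both over 200 bases before the start, ATL5 had 1, KCO2 had 2, CML42 had 4 and AT4G01575 had 5, all on the reverse strand. Of the 20 induced genes with the largest fold changes 14 had a match in this 250-base window, and of the 12 repressed ones 6 did. NRAMP1, which had the smallest adjusted p of the 20, had 0.

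**Figure D4:**
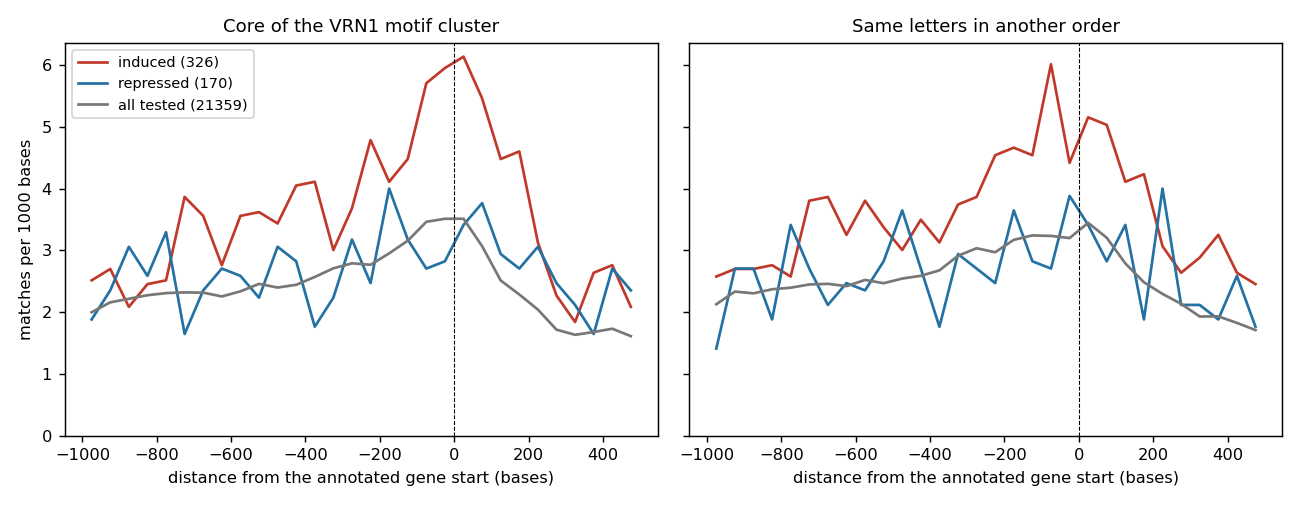
Matches per 1000 bases, on both strands and in bins of 50 bases, from 1000 bases before to 500 bases after the annotated gene start, for the core of the VRN1 motif cluster (left) and for the same letters in another order (right), in induced (red), repressed (blue) and all tested genes (grey). For induced targets the core peaked at 6.13 matches per 1000 bases just after the start, against 3.51 for all tested genes, and the other order of the letters peaked at 6.01 between 100 and 50 bases before it.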

How the data were processed

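RNA-seq libraries were made from sorted protoplasts, sequenced and aligned to TAIR10 with TopHat2 by the authors, who deposited raw read counts per gene for each library. The strand setting and the handling of reads that map to several genes are not given in the sources used here. No normalization had been applied to the deposited counts.

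The 22883 of 33016 genes that reached 10 counts in 3 or more libraries were fitted over all 115 libraries with TF and batch as terms (39 coefficients, 76 residual degrees of freedom), with TMM factors and edgeR's robust quasi-likelihood test (edgeR 4.0.16, limma 3.58.1, R 4.3.3). P-values were adjusted by Benjamini-Hochberg over all tested genes, and the threshold was 0.05. Of the study's 1421 CHX-responsive genes, 1398 were tested and left out of the targets, 87 of which had passed. CPM used TMM-scaled library sizes. DESeq2 1.42.0 was an alternative. On simulated data of 22883 genes for VRN1 against EV, the fit recovered 165 of 200 changed genes and called 12 others. The planted changes were 2-fold or 4-fold, in well-counted genes only, and the simulated data held no differences between batches. Most targets changed less than 2-fold, so this recovery does not apply to them.

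Named genes were VRN1, the 20 induced and 12 repressed targets with the largest fold changes (at least 5 CPM in 1 group, no overlap), the targets in the lists and families, and FLC, VRN2, VIN3, NIA1, NIA2, NIR1 and RTV1. Members and lists were chosen with earlier results of these data known, and groups marked as such were chosen after their values were seen. P-values measure the spread between wells of 1 assay. 1 induced gene is not reported here.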

Additional observations from a re-analysis of the deposited data

How the results depend on the processing

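The number of targets (496) rose to 751 with a replicate block and to 1322 when only the VRN1 and EV libraries were fitted. Induced targets then numbered 850 in the VRN1 and EV fit, and repressed targets 306 with the replicate block, 472 in the VRN1 and EV fit and 266 with DESeq2. Deviations from the group mean in same-numbered VRN1 and EV libraries had correlations of 0.084, 0.005 and 0.042. Between differently numbered libraries the correlations were -0.103 to 0.067. With 3 libraries in each group, these values cannot settle whether the replicate numbers pair the libraries. Leaving out 1 library gave 262 to 377 targets, 191 to 277 induced, 71 to 123 repressed and 5 to 14 induced core histone genes. With batch 6 libraries only, 906 genes were higher than in the 5 other TFs. The cause of these differences was not tested. The share of promoters with the motif core was 67.2% for induced and 51.9% for all tested genes in the 250 bases before the start only. With 1 more base in the core it was 60.7% for induced, 43.5% for repressed and 43.0% for all tested genes, and with 500 bases before the start, a window chosen after seeing the data, 84.7%, 74.1% and 72.9%. Over 39 named genes and 500 alternative values, 454 kept direction and side of the threshold, 43 lost the call, 2 gained it (NIA2 and RTV1, with the VRN1 and EV libraries only) and 1 reversed: VIN3, at -0.093 without VRN1 replicate 2 (-0.093 to 0.906 with 1 library left out). For 7 further values DESeq2 gave no adjusted p. The VRN1 gene itself stayed between 8.02 and 8.29 in every alternative run. Genes of a few CPM were limited by depth, FLC and VIN3 among them.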
